A study of Equus asinus with 12 samples.

Results

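The kelch-like genes (symbols beginning with KLHL) and the kelch repeat and BTB domain genes (symbols beginning with KBTBD) were examined in skeletal muscle of the donkey (Equus asinus). Members were the genes whose symbol is KLHL or KBTBD followed by a number. Where several rows of the deposited expression table carried 1 symbol, the row with the highest mean over all libraries stood for it. The rule matched 52 of the 27084 loci, of which 40 were taken, 1 for each symbol. The rule sets no condition on level other than this choice of row.

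RNA-seq was available for 12 libraries in 4 groups of 3. These were Sanfen longissimus dorsi, Sanfen gluteal muscle, Wutou longissimus dorsi and Wutou gluteal muscle. The labels give Sanfen or Wutou as the breed, and the design text calls the animals Dezhou donkeys, so the groups are called strains here. All animals were 24 months old, none of the labels names a treatment, and the samples came from 6 donkeys according to the design text. Which donkey gave which library is not labelled, so p-values measure only the spread between these libraries.

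Most KLHL and KBTBD proteins join a BTB domain, which binds the scaffold protein cullin 3 (CUL3), to a kelch repeat propeller, which holds a substrate. Together with the RING protein RBX1 they form a ubiquitin ligase in which the kelch protein chooses the target. Skeletal muscle is known for a small set of kelch proteins that act on the sarcomere, and mutations in KLHL40, KLHL41 and KBTBD13 cause nemaline myopathy, a muscle disease with rod-shaped deposits of thin filament protein. Of the 40 members, 36 carry the gene ontology term for the CUL3 ligase complex in the deposited annotation, which 60 of 19895 reference loci carry. The members without it were KBTBD4, KLHL4, KLHL6 and KLHL11. The deposited pathway assignment to ubiquitin mediated proteolysis was present for 37 members and absent for KBTBD11, KBTBD13 and KLHL4. Actin binding was assigned to 3 members, KLHL2, KLHL20 and KLHL33.

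Values are FPKM (fragments counted per length of transcript and per sequencing depth), which are scaled to gene length and library depth, so levels can be set beside each other between genes. Summed FPKM ran from 214564 to 319767 per library. Read numbers are not given, so the counting precision of a value is unknown. The muscle origin of the libraries was visible in skeletal actin ACTA1, with a mean of 10803 FPKM. Among markers of fast fibres 7 of 11 were kept for tests, and among markers of slow fibres 9 of 10. The kept row of the fast troponin gene TNNT3 is an assembled locus named after the gene it overlaps. Its mean was 1.27 FPKM, beside 2206 for the fast troponin gene TNNI2, so it may not stand for TNNT3. Among the markers without a row of their own were the myosin genes MYH7 (slow) and MYH1, MYH2 and MYH4 (fast). Of the 4 blood markers 0 were kept. The Sanfen longissimus library 2 and the Sanfen gluteal library 1 stood apart in fibre markers. Their slow fibre markers lay 0.91 and 1.02 above the mean of all libraries on the log2(FPKM + 1) scale, and their fast fibre markers deviated by -0.76 and -0.71.

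Kelch genes covered a wide range of levels in donkey muscle. Of the 40 members, 29 reached an FPKM of 1 in at least 3 of the 12 libraries, the condition for entering the tests, as did 12408 loci in all. Mean FPKM over the 12 libraries was at least 100 for 1 member, between 10 and 100 for 3, between 3 and 10 for 9, between 1 and 3 for 14 and below 1 for 13. All members together held 163 to 333 FPKM per library, which is 0.0554% to 0.129% of summed FPKM. KLHL41 alone made up 24.5% to 65.3% of the members' sum.

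**Figure D1:**
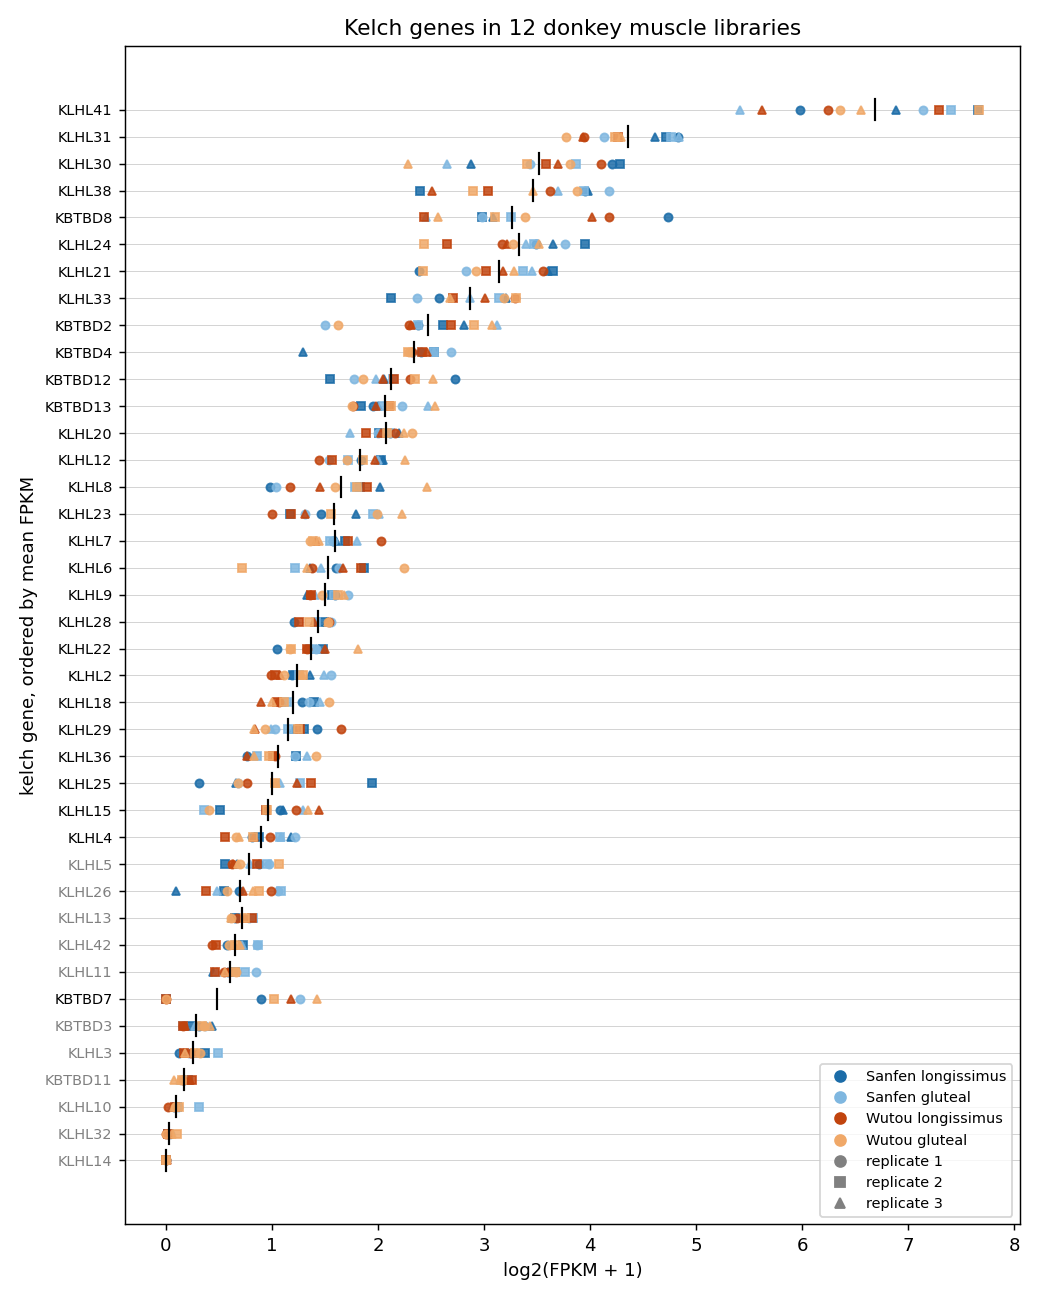
Level of each of the 40 kelch genes on the log2(FPKM + 1) scale, with 1 symbol per library (colour for strain and muscle, shape for replicate number) and a vertical tick at the mean. Gene names in black entered the tests and those in grey did not. KLHL41 lies apart at the top, with its lowest library at 41.7 FPKM, above the highest library of KLHL31 at 27.5 FPKM.

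KLHL41, which binds and stabilises the giant thin filament protein nebulin, was the most abundant member, with a mean of 116 FPKM ± 57.3 (SD, n = 12). This level exceeded that of 98.7% of the tested loci. KLHL41 measured 62.1, 201 and 117 FPKM in the Sanfen longissimus libraries, and the Sanfen gluteal libraries held 140, 169 and 41.7. In Wutou it measured 74.6, 156 and 48.2 FPKM in longissimus and 81.0, 202 and 92.8 in gluteal muscle. The groups overlapped throughout, and the spread was inside them, with a 4.86-fold distance between the highest and the lowest library. In each of the 4 groups, the library numbered 2 held the highest KLHL41 value. Between muscles over both strains, the log2 change of KLHL41 was 0.14 with a 95% confidence interval from -0.82 to 1.10. Between strains over both muscles it was -0.13, with an interval from -1.15 to 0.90.

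KLHL40, the close paralog of KLHL41 that stabilises leiomodin 3 (LMOD3) and nebulin, was not measured on its own. Its name appears only in a locus that also carries ZBTB47 and LOC106843176, whose reads cannot be assigned to 1 of these genes. This merged locus, which is no member, measured 69.4, 86.7 and 22.7 FPKM in the Sanfen longissimus libraries, and the Sanfen gluteal libraries held 37.8, 35.3 and 15.6. The Wutou values of the KLHL40 locus were 50.6, 58.0 and 34.2 FPKM in longissimus and 69.1, 49.7 and 14.3 in gluteal muscle. In each group the library numbered 3 was the lowest. The ratio of KLHL41 to this locus ran from 0.896 to 6.50 within a library, with a median of 2.68. KLHL34 and KLHL17 likewise occur only in merged loci, with means of 5.24 and 0.856 FPKM.

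KLHL31, a muscle-enriched member whose loss in mice gives a myopathy, came next with a mean of 20.2 FPKM ± 5.47 (SD, n = 12). KBTBD13, which binds actin in the thin filament and slows muscle relaxation when mutated, was far lower at 3.25 FPKM, close to KLHL20, an adaptor for the kinase DAPK1, at 3.24 FPKM. KLHL9, reported to be mutated in a distal myopathy, had a mean of 1.85 FPKM. So the members with a known place in muscle disease spanned the range from the top of the family to a level near the middle of all tested loci, since KLHL9 exceeded 49.1% of them.

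KLHL30 and KLHL38 followed KLHL31 in order of level. For KLHL30, the Sanfen libraries held 17.5, 18.5 and 6.33 FPKM (longissimus) and 9.79, 13.6 and 5.29 FPKM (gluteal), and the Wutou libraries 16.2, 11.0 and 11.9 FPKM (longissimus) and 13.0, 9.62 and 3.85 FPKM (gluteal). For KLHL38, the Sanfen libraries held 14.5, 4.28 and 14.8 FPKM (longissimus) and 17.1, 14.4 and 12.01 FPKM (gluteal), and the Wutou libraries 11.3, 7.20 and 4.71 FPKM (longissimus) and 13.7, 6.46 and 10.0 FPKM (gluteal). Both genes had single low libraries inside otherwise high groups. For KLHL38, 1 of these was Sanfen longissimus library 2, which also stood apart in fibre markers; whether fibre markers have a part in this was not tested.

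KBTBD8, an adaptor known from neural crest formation, reached a mean of 9.89 FPKM with uneven libraries. It measured 25.7, 6.92 and 7.51 FPKM in the Sanfen longissimus libraries, and the Sanfen gluteal libraries held 6.91, 8.52 and 4.47. In Wutou, KBTBD8 measured 17.1, 4.39 and 15.2 FPKM in longissimus and 9.45, 7.57 and 4.92 in gluteal muscle. The 3 highest libraries were all longissimus, and the rest of the longissimus libraries lay at the level of the gluteal ones. Its log2 change between gluteal and longissimus muscle over both strains was -0.62, with an interval from -1.43 to 0.19 and an adjusted p of 0.795 by limma.

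Among the remaining members above 3 FPKM, KLHL24, which controls turnover of intermediate filament proteins, had a mean of 9.47 FPKM and KLHL21, which acts on Aurora B kinase in cell division, one of 8.17 FPKM. KLHL33 had a mean of 6.56 FPKM and a range from 3.36 to 8.87. KBTBD2, which restrains the PI3-kinase subunit encoded by PIK3R1 and so acts on insulin signalling, had a mean of 4.87 FPKM and a range from 1.84 to 7.71. KBTBD4, an adaptor that acts on chromatin regulators, had a mean of 4.17 FPKM, and KBTBD12 one of 3.46. Of the 39 pairs of neighbours in the order of mean levels, only KLHL41 and KLHL31 had ranges over the 12 libraries that did not overlap. For the other neighbours the ranges over the 12 libraries overlapped. This overlap does not settle their order, since both genes of a pair were measured in the same libraries and were not compared library by library.

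KLHL12, which enlarges the transport vesicles that carry collagen, had a mean of 2.61 FPKM, and KLHL6, known from B cells, one of 1.98 FPKM. KLHL22 (1.61 FPKM), an adaptor in nutrient signalling, and KLHL25 (1.09 FPKM), an adaptor for a repressor of translation, lay lower. KLHL10, known from spermatids, did not enter the tests and had a mean of 0.0733 FPKM. KLHL14 was listed at 0 in 11 libraries.

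Paralogs with a shared substrate were not equally abundant. KLHL2 and KLHL3 both act on WNK kinases, which regulate ion transport, and KLHL2 had a mean of 1.37 FPKM against 0.196 for KLHL3. KLHL9 and KLHL13 act together on Aurora B, and their means were 1.85 and 0.644 FPKM. KBTBD7, which works with KBTBD6 in other cells, was listed at 0 in 7 libraries and at 0.868 to 1.69 FPKM in the other 5. No KBTBD6 row was among the members. The 11 members that did not enter the tests were KLHL5, KLHL26, KLHL13, KLHL42, KLHL11, KBTBD3, KLHL3, KBTBD11, KLHL10, KLHL32 and KLHL14, with means from 0.731 FPKM for KLHL5 downwards. For 8 members more than 1 row carried the symbol. Adding those rows moved KLHL29 from 1.26 to 3.80 FPKM, KLHL8 from 2.28 to 3.74, KLHL18 from 1.32 to 1.81, KLHL26 from 0.651 to 1.03 and KLHL13 from 0.644 to 0.919, each by more than the SD over the 12 libraries. KLHL4 (0.883 to 1.06 FPKM), KLHL25 (1.09 to 1.27) and KLHL41 moved by less than that SD.

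Gluteal and longissimus muscle were compared to ask whether kelch genes differ between a hip and a back muscle. In Sanfen, 0 of the 29 tested members passed an adjusted p of 0.05 by limma with Benjamini-Hochberg adjustment over all tested loci, where 0.0242% of all loci did. At an unadjusted p under 0.05 there were 0 members, against 3.57% of all loci. The log2 change was above 0 for 16 members (55.2%, beside 67.6% of all loci) and below 0 for 13. The median was 0.02 beside 0.08 for all loci. After median-of-ratios or quantile rescaling of the libraries, 10 and 9 members lay above 0, so the split of directions depends on the scaling. The median half-width of a member's 95% interval was 0.57 on the log2 scale.

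KBTBD4 had the smallest p in this comparison. It measured 4.30, 4.75 and 1.45 FPKM in the Sanfen longissimus libraries, and the Sanfen gluteal libraries held 5.45, 4.78 and 4.79. The groups did not overlap, but the highest longissimus library lay just below the lowest gluteal one, and longissimus library 3 was far below the other two. Its log2 change was 0.51 ± 0.26 (SE) with an unadjusted p of 0.0752 and an adjusted p of 1 by limma. Without Sanfen longissimus library 3 the change was 0.12. In Wutou, KBTBD4 measured 3.99, 4.33 and 4.51 FPKM in longissimus and 3.90, 3.86 and 3.96 in gluteal muscle, so there every gluteal library lay below every longissimus library. The difference of the muscle contrast between strains was -0.61 ± 0.37 (SE), with an adjusted p of 1 by limma.

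KBTBD13 also had separated Sanfen groups, with 2.87, 2.58 and 3.01 FPKM in longissimus and 3.68, 3.15 and 4.55 in gluteal muscle. In Wutou the KBTBD13 values were 2.40, 3.31 and 2.96 FPKM in longissimus and 2.38, 3.36 and 4.79 in gluteal muscle, and these groups overlapped. The log2 change of KBTBD13 was 0.32 in Sanfen and 0.19 in Wutou. KLHL2 had the third smallest p in Sanfen, with a log2 change of 0.19 ± 0.13 (SE). KLHL29 was tested on 1 of the 6 rows with its symbol, with a mean of 1.26 FPKM beside 3.80 for the rows summed. On that row it was the only member with all Sanfen gluteal libraries (1.04, 1.22 and 0.987 FPKM) below all Sanfen longissimus libraries (1.68, 1.47 and 1.31). So 2 members lay higher without overlap, where 6.27% of all loci did, and 1 lay lower, where 1.27% did.

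In Wutou, 0 of the 29 members passed the adjusted threshold by limma, and 0% of all loci did. At an unadjusted p under 0.05 there was 1 member, against 5.68% of all loci. Gluteal values were higher for 19 members (65.5%, beside 58.6% of all loci) and lower for 10. The median log2 change was 0.07 beside 0.05 for all loci, and 15 and 18 members lay above 0 after median-of-ratios and quantile rescaling. Higher without overlap were 3 members, KLHL23, KLHL9 and KLHL2, where 8.7% of all loci were, and lower without overlap was KBTBD4, where 4.18% of all loci were.

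KLHL23 showed the smallest p of any member in the muscle comparisons. It measured 1.01, 1.26 and 1.48 FPKM in the Wutou longissimus libraries, against 2.98, 1.95 and 3.69 in the Wutou gluteal libraries, with no overlap. In Sanfen it measured 1.75, 1.26 and 2.47 FPKM in longissimus and 1.49, 2.89 and 3.03 in gluteal muscle, where the groups overlapped. The log2 change of KLHL23 in Wutou was 0.76 ± 0.23 (SE), with a 95% interval from 0.25 to 1.28, an unadjusted p of 0.00729 and an adjusted p of 0.870 by limma. Summed slow fibre markers ran from 2646 to 4610 FPKM in Wutou longissimus and from 2476 to 2649 in Wutou gluteal muscle, for 9 of 10 markers kept. Among other lists, 6 of 6 endothelial, 4 of 4 smooth muscle, 5 of 7 fibroblast and tendon and 3 of 5 adipocyte markers lay higher in Wutou gluteal muscle. So did 2 of 7 fast fibre, 1 of 3 satellite cell, 0 of 2 macrophage and 0 of 9 slow fibre markers. Whether the content of fibres or other cells has a part in the KLHL23 values was not tested. In bulk tissue fewer cells of a type and less RNA per cell cannot be told apart.

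KLHL9 measured 1.56, 1.58 and 1.58 FPKM in the Wutou longissimus libraries, against 1.77, 2.08 and 2.21 in the Wutou gluteal libraries. In Sanfen the groups overlapped, with 2.02, 1.96 and 1.51 FPKM in longissimus and 2.30, 2.001 and 1.65 in gluteal muscle. Its log2 change in Wutou was 0.23 ± 0.13 (SE), with an adjusted p of 0.884 by limma. KLHL7, mutated in an inherited retinal dystrophy, had the opposite sign in Wutou, with a log2 change of -0.33 ± 0.16 (SE) and an adjusted p of 0.870 by limma. Its Wutou libraries were 3.09, 2.30 and 1.67 FPKM in longissimus and 1.56, 1.62 and 1.72 in gluteal muscle, which overlap at 1 library of each.

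Averaged over both strains, 0 of 29 members passed the adjusted threshold of the muscle comparison by limma, as did 0% of all loci, and 1 member had an unadjusted p under 0.05, against 6.56%. That member was KLHL23, with a log2 change of 0.52 ± 0.17 (SE) and an adjusted p of 0.745 by limma. KLHL2 followed with 0.19 and the tested row of KLHL29 with -0.25, at adjusted p of 0.760 and 0.774 by limma. Members above 0 numbered 17 (58.6%, beside 65.9% of all loci) and became 12 after either rescaling. All 6 gluteal libraries lay above all 6 longissimus libraries for 0 members, where 0.33% of all loci had this, and below them for 0 members, where 0.0564% had it.

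**Figure D2:**
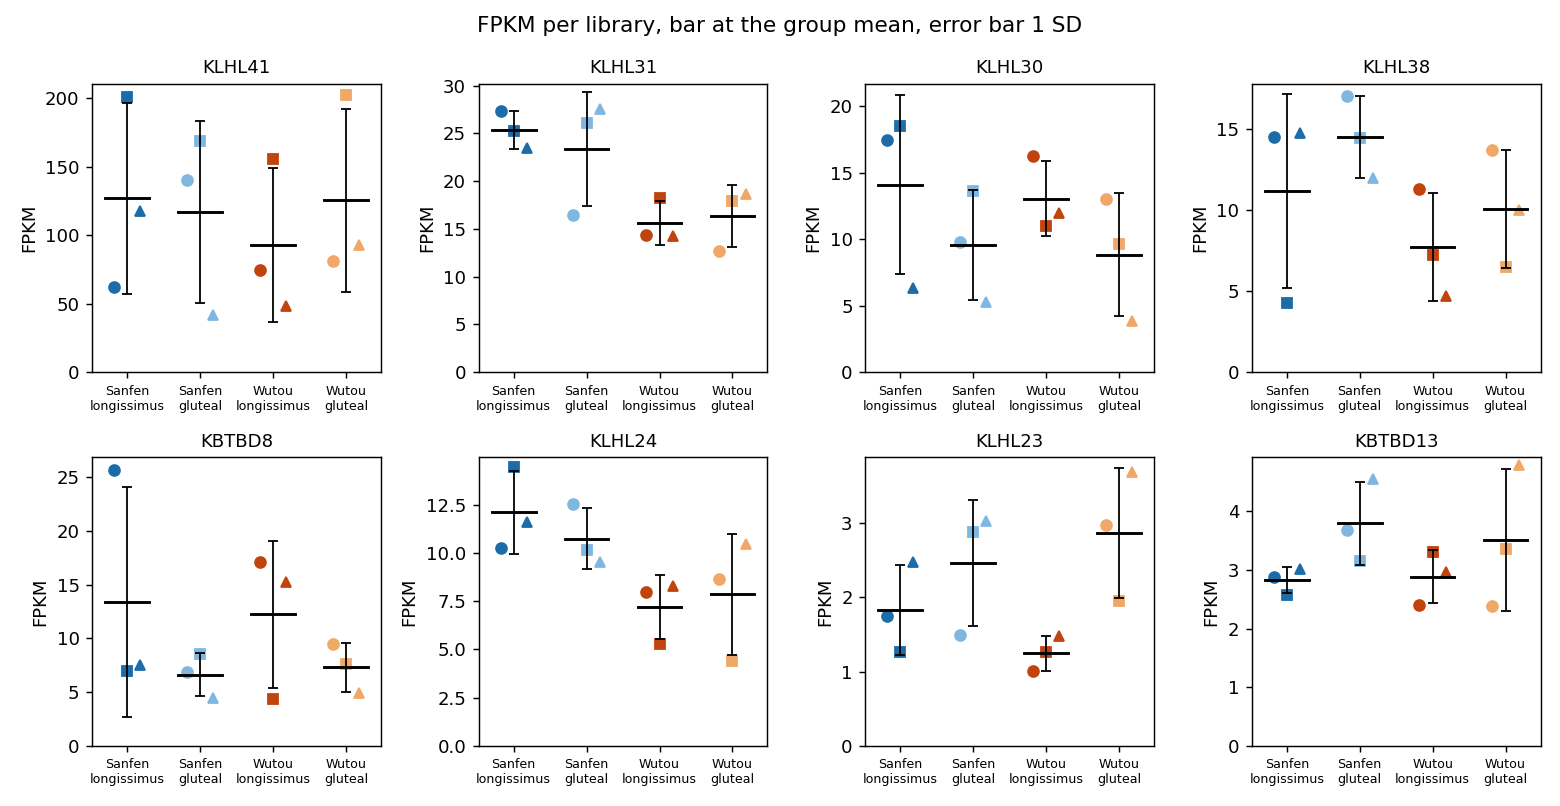
FPKM of 8 kelch genes by strain and muscle, with 1 symbol per library, a bar at the mean of the 3 libraries and whiskers of 1 SD. KLHL31 and KLHL24 lie lower in Wutou than in Sanfen longissimus without overlap, KLHL23 higher in Wutou gluteal than in Wutou longissimus, and KLHL41 spreads widely inside every group.

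Wutou and Sanfen were compared to ask whether the strains differ in kelch gene levels. In longissimus, 0 of the 29 members passed the adjusted threshold by limma, where 0.0161% of all loci did, and 2 members had an unadjusted p under 0.05, against 5.52% of all loci. Those 2 were KLHL31 and KLHL24. Wutou was higher for 12 members (41.4%, beside 40.7% of all loci) and lower for 17. The median was -0.06, the same as for all loci, and 14 and 13 members lay above 0 after the rescalings. Lower without overlap were 4 members, KLHL31, KLHL24, KLHL2 and KLHL18, where 7.92% of all loci were. Higher without overlap were 0 members, where 3.88% of all loci were.

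In longissimus, KLHL31 measured 27.4, 25.3 and 23.5 FPKM in the Sanfen libraries, against 14.3, 18.2 and 14.2 in the Wutou libraries. All Wutou longissimus libraries lay below all Sanfen ones, with means of 15.6 ± 2.27 and 25.4 ± 1.95 (SD, n = 3 each). The log2 change was -0.67 ± 0.23 (SE), with an interval from -1.18 to -0.17, an unadjusted p of 0.0130 and an adjusted p of 0.854 by limma. In gluteal muscle, KLHL31 held 16.5, 26.1 and 27.5 FPKM in the Sanfen libraries, against 12.7, 17.9 and 18.6 in the Wutou libraries. There 1 Sanfen library, library 1, lay among the Wutou libraries, and it is 1 of the libraries that stood apart in fibre markers. The gluteal log2 change was -0.47 ± 0.23 (SE), with an adjusted p of 0.963 by limma. Without that library and Sanfen longissimus library 2, a choice made after seeing the data, the gluteal change was -0.70. Library 1 held the lowest Sanfen gluteal value, so leaving it out had to make the change more negative.

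In longissimus, KLHL24 measured 10.3, 14.5 and 11.6 FPKM in the Sanfen libraries, against 7.99, 5.29 and 8.31 in the Wutou libraries, again without overlap. The log2 change was -0.69 ± 0.28 (SE), with an unadjusted p of 0.0293 and an adjusted p of 0.854 by limma. In gluteal muscle, KLHL24 held 12.6, 10.1 and 9.55 FPKM in the Sanfen libraries, against 8.66, 4.40 and 10.5 in the Wutou libraries, and Wutou library 3 lay above 2 of the Sanfen libraries. In longissimus, KLHL2 measured 1.28, 1.29 and 1.56 FPKM in the Sanfen libraries, against 0.995, 1.04 and 1.11 in the Wutou libraries, a log2 change of -0.21 ± 0.13 (SE). In longissimus, KLHL18, which acts on Aurora A kinase, measured 1.44, 1.63 and 1.14 FPKM in the Sanfen libraries, against 1.10, 1.07 and 0.866 in the Wutou libraries, where the nearest libraries of the groups almost touch.

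Fast fibre markers and a nerve sheath marker moved with the same strain split in longissimus. Summed fast fibre markers, with 7 of 11 kept, ran from 5869 to 15340 FPKM in Sanfen and from 16754 to 18407 in Wutou. The parvalbumin gene PVALB was listed at 0 in 2 libraries and the assembled locus named TNNT3, which may not stand for that gene, in 3. PMP22, a marker of Schwann cells, measured 6.51, 5.11 and 3.85 FPKM in the Sanfen longissimus libraries, against 3.19, 1.07 and 2.71 in the Wutou longissimus libraries, without overlap. Of all loci, 7.92% lay lower in Wutou longissimus without overlap. As 1 gene, PMP22 may not stand for the content of Schwann cells. Other lists leaned lower in Wutou longissimus too. Above 0 were 0 of 5 adipocyte markers (median log2 change -0.45), 1 of 7 fibroblast and tendon markers (-0.38) and 0 of 3 satellite cell markers (-0.83). Of the rest, 3 of 9 slow fibre, 3 of 6 endothelial, 3 of 4 smooth muscle and 2 of 2 macrophage markers lay above 0. The part of these markers in the KLHL31 and KLHL24 values was not tested.

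In gluteal muscle, 0 of the 29 members passed the adjusted threshold between strains by limma, where 0.00806% of all loci did, and 1 had an unadjusted p under 0.05, against 4.86% of all loci. That was KLHL4, with 1.33, 1.11 and 1.12 FPKM in the Sanfen libraries, against 0.581, 0.763 and 0.610 in the Wutou libraries. Its groups did not overlap, and the log2 change was -0.40 ± 0.16 (SE) with an adjusted p of 0.963 by limma. The KLHL4 row is an assembled locus that takes its name from the gene it overlaps, so its reads may not all be those of KLHL4. It reached 1 FPKM in 4 libraries, the Sanfen gluteal ones and Sanfen longissimus library 3. KLHL4 thus entered the tests only through the strain where it was higher, so its p and its separation lend no support to a strain difference. Summed slow fibre markers, with 9 of 10 kept, ran from 3600 to 7403 FPKM in Sanfen gluteal muscle and from 2476 to 2649 in Wutou, and 9 of the 9 had a log2 change below 0. PMP22 measured 7.87, 5.51 and 6.07 FPKM in the Sanfen gluteal libraries, against 4.54, 4.28 and 1.34 in the Wutou gluteal libraries, again without overlap. Of all loci, 8.68% lay lower in Wutou gluteal muscle without overlap. Above 0 in gluteal muscle were also 0 of 4 smooth muscle, 2 of 6 endothelial, 1 of 3 satellite cell and 2 of 5 adipocyte markers. Of the rest, 3 of 7 fibroblast and tendon, 4 of 7 fast fibre and 2 of 2 macrophage markers lay above 0. The part of these markers in the gluteal KLHL4 and KLHL31 values was not tested. KLHL7 and KBTBD4 also lay lower in Wutou without overlap, which made 3 members where 8.68% of all loci did. Higher without overlap were 0 members, where 2.19% of all loci were. KLHL20 had the third smallest p, with a log2 change of 0.27 and an adjusted p of 0.963 by limma. Wutou was higher for 13 members (44.8%, beside 34.2% of all loci) and lower for 16. After median-of-ratios and quantile rescaling, 16 and 18 members lay above 0.

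Over both muscles, 0 of the 29 members passed the adjusted threshold between strains by limma, and 0% of all loci did. At an unadjusted p under 0.05 there were 3 members, KLHL31, KLHL24 and KLHL4, against 5.97% of all loci. KLHL31 had means of 16.0 FPKM in Wutou and 24.4 in Sanfen, a log2 change of -0.57 ± 0.18 (SE), an unadjusted p of 0.00844 and an adjusted p of 0.793 by limma. Without Sanfen longissimus library 2 and Sanfen gluteal library 1, again a choice made after seeing the data, its change was -0.69. KLHL24 had means of 7.52 and 11.4 FPKM, a log2 change of -0.58 ± 0.21 (SE) and an adjusted p of 0.793. KLHL4, which entered the tests only through Sanfen libraries, had a log2 change of -0.29 ± 0.13 (SE) and an adjusted p of 0.814 by limma. Over both muscles, 9 of the 9 kept slow fibre markers also had a log2 change below 0, with a median of -0.53, and 6 of the 7 kept fast fibre markers had one above 0, with a median of 0.37. Other lists leaned lower in Wutou too, with 0 of 4 smooth muscle, 0 of 3 satellite cell and 1 of 5 adipocyte markers above 0. Of the rest, 2 of 7 fibroblast and tendon, 2 of 6 endothelial and 2 of 2 macrophage markers lay above 0. The part of all these markers in the values of the members was not tested. The signs of the members split as 12 above 0 (41.4%, beside 35.3% of all loci) and 17 below, and 17 and 18 lay above 0 after the rescalings. All 6 Wutou libraries lay above all 6 Sanfen libraries for 0 members, where 0.0242% of all loci had this, and below them for 0 members, where 0.451% had it.

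**Figure D3:**
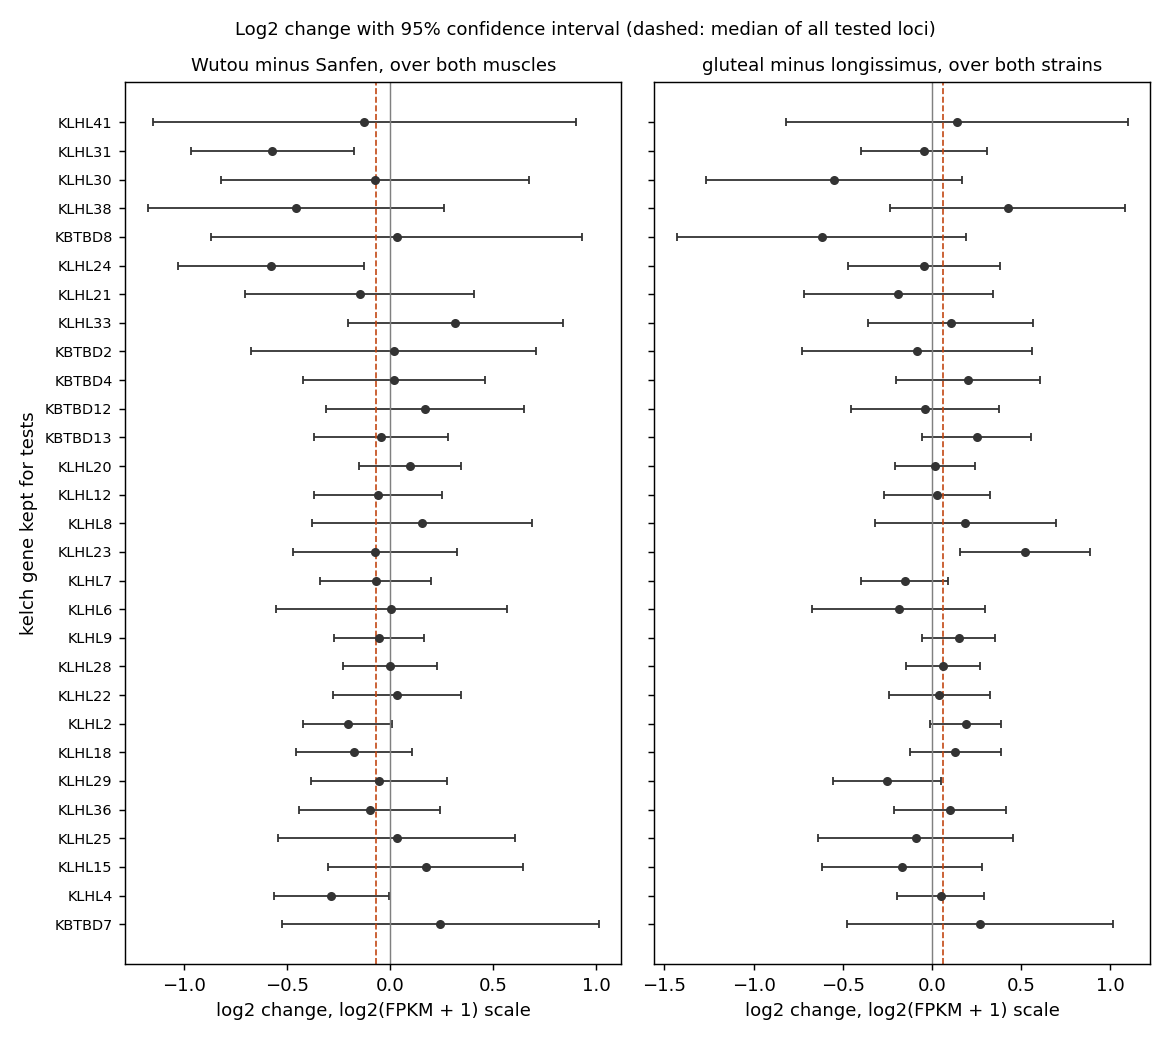
Log2 change of each of the 29 tested kelch genes between strains over both muscles (left) and between muscles over both strains (right), as points with 95% confidence intervals on the log2(FPKM + 1) scale. The dashed line marks the median of all tested loci, at -0.07 on the left and 0.07 on the right. The intervals of KLHL31, KLHL24 and KLHL4 on the left and of KLHL23 on the right leave out 0, before adjustment over all loci. KLHL4 entered the tests only through Sanfen libraries.

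The muscle contrast was also compared between strains. By limma, 0 of the 29 members passed the adjusted threshold, where 0.00806% of all loci did, and 0 had an unadjusted p under 0.05, against 2.6% of all loci. The smallest p belonged to KLHL12, with a difference of 0.49 ± 0.27 (SE) in log2 change, followed by KLHL20 with 0.35 ± 0.21 and KBTBD4. The median half-width of a member's interval for this difference was 0.81, so only differences of that size or more could have left 0 outside the interval of a typical member. Over the 7 comparisons and all alternative settings run, the lowest adjusted p of any member was 0.502 by limma.

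The shared machinery of the ligase was present at lower levels than the leading adaptor. For CUL3, the Sanfen libraries held 4.35, 2.25 and 4.07 FPKM (longissimus) and 4.32, 3.03 and 3.94 FPKM (gluteal), and the Wutou libraries 5.32, 3.32 and 3.95 FPKM (longissimus) and 6.66, 6.68 and 4.69 FPKM (gluteal). KLHL41 exceeded CUL3 by 10.6 to 89.5 times within a library, with a median of 24.3, and RBX1, with a mean of 15.4 FPKM, by 3.51 to 25.9 times. The members' summed FPKM was 29.5 to 148 times that of CUL3. These are ratios of transcript levels and say nothing of protein amounts.

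The wider list of the ligase core, its neddylation enzymes and the COP9 signalosome, which removes the NEDD8 tag from cullins, had 25 of 29 genes kept. In each of the 7 comparisons 0 of these 25 passed the adjusted threshold by limma, and 0 to 3 had an unadjusted p under 0.05, beside 2.6% to 6.56% of all loci. The highest means belonged to the signalosome subunit COPS4 (39.0 FPKM), the ubiquitin-conjugating enzyme CDC34 (36.3) and the signalosome subunit GPS1 (18.7). CUL3 lay higher in Wutou than in Sanfen gluteal muscle without overlap, where 2.19% of all loci did. Its log2 change was 0.55, with an unadjusted p of 0.0332 and an adjusted p of 0.963 by limma.

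BTB-kelch genes that carry other names were partly more abundant than all members but KLHL41. KEAP1, the sensor that keeps the antioxidant factor NFE2L2 low, had a mean of 39.7 FPKM and IVNS1ABP one of 28.0, against 20.2 for KLHL31. ENC1, at 0.517 FPKM, did not enter the tests. Other CUL3 adaptors with a BTB domain had 14 of 15 genes kept, led by BTBD1 (20.1 FPKM), BTBD6 (18.1) and RHOBTB3 (10.3). Of both lists 0 genes passed the adjusted threshold in any of the 7 comparisons by limma, and 0 to 2 had an unadjusted p under 0.05, where the 2 fell in the strain comparison over both muscles (5.97% of all loci).

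Reported substrates and partners of the members had 23 of 30 genes kept, and by limma 0 passed the adjusted threshold in the 7 comparisons, with 0 to 4 at an unadjusted p under 0.05. The 4 fell in the Wutou muscle comparison, where 5.68% of all loci had such a p. The most abundant were ACTA1, nebulin (NEB) at 506 FPKM and NRAP, a scaffold of myofibril assembly, at 465 FPKM. NEB ran from 331 to 780 FPKM over the 12 libraries. LMOD3, which nucleates thin filaments and is held stable by KLHL40, measured 6.14, 5.95 and 5.54 FPKM in the Wutou longissimus libraries, against 18.2, 8.33 and 7.09 in the Wutou gluteal libraries. These groups did not overlap, where 8.7% of all loci lay higher in Wutou gluteal muscle without overlap, and library 1 of the gluteal group stood above the rest. The LMOD3 log2 change between the Wutou muscles was 0.72, with an unadjusted p of 0.0268 and an adjusted p of 0.870 by limma.

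**Figure D4:**
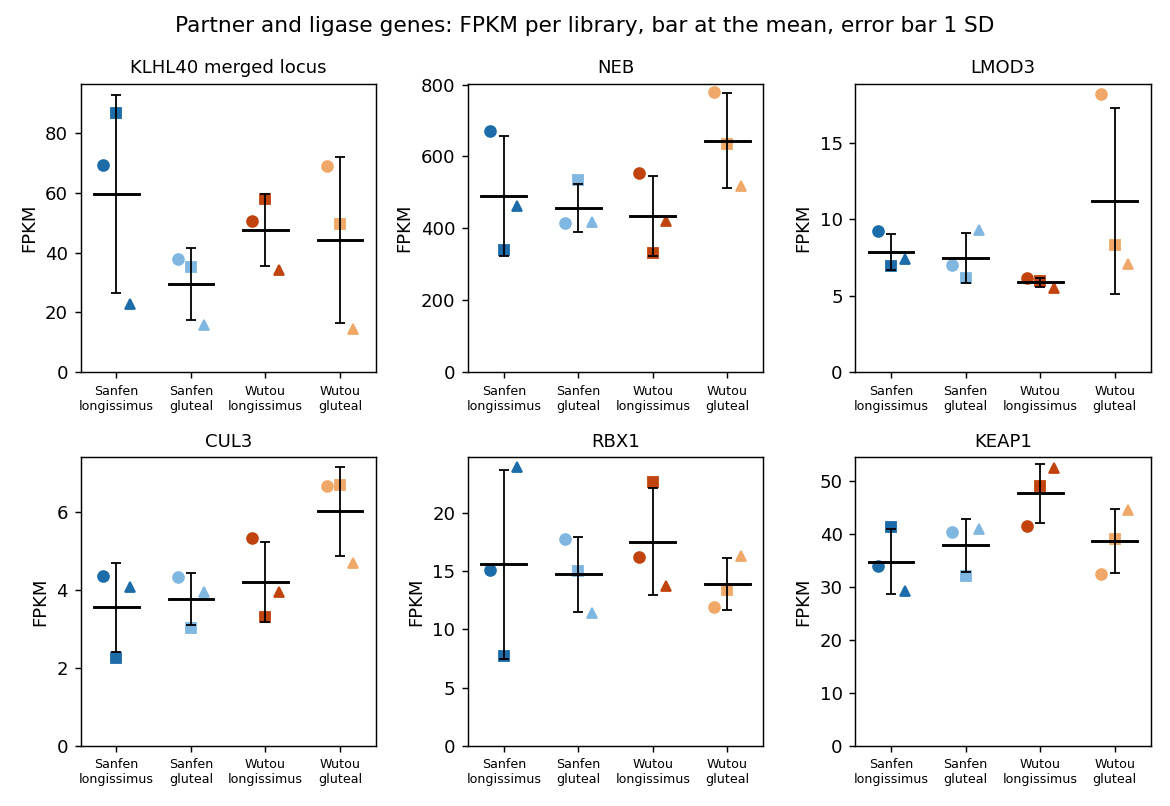
FPKM of the merged KLHL40 locus, the partners NEB and LMOD3, the ligase subunits CUL3 and RBX1 and the kelch gene KEAP1 by strain and muscle, with 1 symbol per library, a bar at the mean of the 3 libraries and whiskers of 1 SD. The CUL3 libraries of Wutou gluteal muscle lie above those of Sanfen gluteal muscle, and the library numbered 3 is the lowest of the KLHL40 locus in every group.

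The members varied across the 12 libraries about as much as other loci, with a median coefficient of variation of 30.0% beside 29.8% for all tested loci. KBTBD7 (129%), KBTBD8 (64.4%) and KLHL25 (62.3%) varied the most. KLHL25 ran from 0.240 to 2.85 FPKM, and both its lowest and its highest library were Sanfen longissimus. KLHL28 (12.1%), KLHL20 (13.9%) and KLHL9 (14.9%) varied the least, and KLHL20 ran from 2.34 to 4.002 FPKM.

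**Figure D5:**
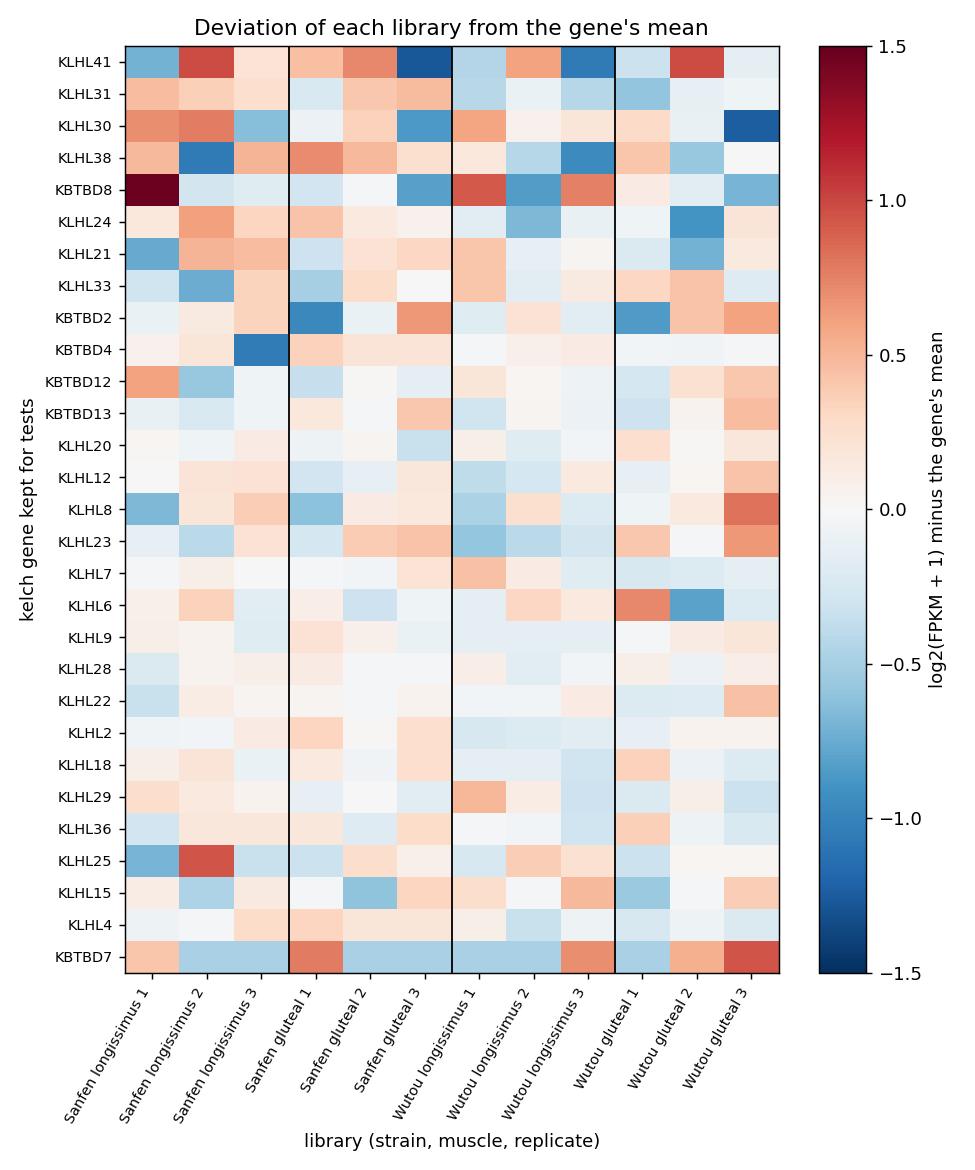
Deviation of each library from the mean of the gene on the log2(FPKM + 1) scale for the 29 tested kelch genes (rows, in order of mean FPKM) in the 12 libraries (columns, groups divided by lines). Red is above and blue below the mean. The colours of KLHL41, KLHL30 and KLHL38 change from library to library inside the groups, and no library is red or blue throughout.

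Members did not share 1 pattern across libraries. Over the 406 pairs of tested members, the Pearson correlation of log2(FPKM + 1) across 12 libraries had a median of 0.00, beside 0.05 for all pairs of tested loci, and 2.71% of member pairs exceeded 0.6, beside 4.16%. All points share their libraries and scaling, so these are descriptions. The mean deviation of the tested members ran from -0.09 in Wutou longissimus library 2 to 0.08 in Wutou gluteal library 3. Sanfen gluteal library 1 and Wutou gluteal library 3 each held the highest value for 6 members, and Sanfen longissimus library 1 held the lowest for 5. KLHL30 and KBTBD13 had the most negative correlation of the 406 pairs, at -0.84, and the Wutou gluteal library 3 had the lowest KLHL30 (3.85 FPKM) and the highest KBTBD13 (4.79 FPKM) of all.

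The genes with a pattern most like that of KLHL41 were LOC106824414, FLI1, NOTCH4, TUBB and ACTL6A, with correlations of 0.92, 0.89, 0.88, 0.88 and 0.88 over the 12 libraries, picked as the highest of 8671 named loci. All of them were much lower than KLHL41, with means from 1.02 FPKM for ACTL6A to 4.61 for TUBB. In the RefSeq order of donkey genes, KLHL10 and KLHL11 are direct neighbours, as are KLHL24 and KLHL6, and 4 genes lie between KLHL41 and KLHL23. KLHL41 and KLHL23 differed in level, at 116 and 2.10 FPKM.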

How the data were processed

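The authors deposited FPKM per locus and library, per the file headers. Per the submitters' processing notes, cutadapt, Bowtie2 and TopHat2 were used; versions, build, strand and read numbers are not given in the sources used here. Per the labels, kits were an mRNA and a small RNA kit. Members and gene lists were chosen with earlier results of these data known.

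Loci that reached 1 FPKM in 3 or more libraries (12408) were tested on log2(FPKM + 1) with limma 3.58.1 in R 4.3.3. The model had 4 group means (8 residual degrees of freedom), moderated variances with a trend and Benjamini-Hochberg adjustment at 0.05, and was tested on simulated data. The strain comparison over both muscles had a random block for each strain and replicate number (statmod 1.5.0, consensus correlation 0.188). Fold changes of low genes are understated on this scale. Deviations of Sanfen libraries with the same number correlated at 0.246, 0.110 and 0.158, each over the limit of 0.1. This points at pairs from the values, not the labels. The muscle comparisons reported above were nonetheless unpaired, and the replicate block was only an alternative for them. Depth relative to 1 library, from steps of low values, was 0.911 to 1.05, on 1.26% to 2.20% of ratios, a weak estimate.

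Named with values were the 12 most abundant members, the 3 with the smallest p per comparison, the 3 with the largest and smallest coefficients of variation, muscle disease genes and paralogs, the 3 most abundant genes of each list, and the 5 loci most correlated with KLHL41. Other members were named after their values were seen. Alternatives were a pseudocount of 0.1, no filter, an FPKM filter of 5, median-of-ratios and quantile rescaling, and array weights. Further alternatives were only the libraries compared, the replicate block and each library left out. Rows sharing a symbol were summed for mean levels only, and no test was repeated on summed rows. All 40 names matched the RefSeq table (EquAss-T2T_v2), used only for names and order. Tables came from Python 3.11.15 with pandas 2.3.3 and numpy 2.4.6, and figures from matplotlib 3.10.9.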

Additional observations from a re-analysis of the deposited data

How the results depend on the processing

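With the replicate block, 0 of the 29 tested members were called in each comparison it could be fitted for, as without it, and the pairing changed no call of a member. In Wutou, same-numbered libraries correlated at 0.182, 0.165 and 0.0711, 1 of them under the limit of 0.1. The numbers did not count as pairs there by this limit, though the replicate block alternative covered both strains. Each library did correlate best with its own number, a hint from the data and not from the design. The random block of the strain comparison over both muscles covers both strains, since its libraries may share donkeys. The count of called members was 0 under every alternative run, leaving out each library in turn included (0 to 0). The 21 log2 changes with the 3 smallest p of each comparison kept their sign in all 416 refits, and 0 of them were called. KLHL31 between strains over both muscles ran from -0.69 to -0.48, KLHL24 from -0.68 to -0.43, and KLHL23 between Wutou muscles from 0.61 to 1.11. KBTBD4 between Sanfen muscles ran from 0.12 to 0.80, its lowest value coming without Sanfen longissimus library 3. The filter at an FPKM of 5 left 9 members to test. Leaving out Sanfen longissimus library 2 and Sanfen gluteal library 1 together was chosen after seeing the data; 0 members were called then, and members above 0 numbered 17 for the Sanfen muscle comparison and 12 for the strain comparison over both muscles. Depth is unknown, so the precision of genes near 1 FPKM cannot be given, and 3 libraries a group leave a median 95% half-width of 0.57 on the log2 scale within a muscle or strain and of 0.81 for the difference of the muscle contrast.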
